A study of Mus musculus with 49 samples.

Results

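The genes described here are those of transforming growth factor beta (TGF-beta) and bone morphogenetic protein (BMP) signalling in mouse fibroblasts, reprogramming fibroblast cultures and pluripotent stem cell lines. Members were taken by symbol: every BMP, TGF-beta, inhibin, activin receptor, growth differentiation factor, SMAD, SKI, ID1 to ID4, latent TGF-beta binding protein, follistatin, chordin, gremlin, Bambi and Sostdc1 gene with a named probe. The rule found 74 probes for 69 genes among 13852 named genes, and the brighter probe stood for each of the 5 genes with more than 1. By role these were 21 ligands, 8 secreted antagonists or decoy receptors, 5 latency and processing proteins, 9 receptors, 10 SMAD, SKI and receptor-associated proteins and 5 target genes. A further 11 genes were taken by the start of their symbol and given none of these roles here (Bmp2k, Fstl1, Fstl4, Fstl5, Skida1, Skint4, Skint6, Skint9, Skint11, Skiv2l and Tgfb1i1). Of the 69, 40 had a value in every normalization set of the study.

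The study reprogrammed mouse embryonic fibroblasts (MEF) with lentiviral factors switched on by doxycycline and asked which factors can stand in for OCT4 or SOX2. RNA was measured on 49 one-colour arrays in 23 groups, 20 groups with 2 arrays and 3 with 3. Fibroblasts came from limb and tail skin of female OGXICR embryos of age D13.5, after the epidermis had been removed. MEF1 EV and MEF2 EV carried the empty vector (EV), and uninfected MEF served as the reference for the cell lines. SKM+EV fibroblasts carried SOX2, KLF4, MYC and the empty vector, and 9 further groups carried SKM with OCT4, GATA6, SOX7, PAX1, GATA4, CEBPa, HNF4a, GRB2 or MIXL1. OKM+EV fibroblasts carried OCT4, KLF4, MYC and the empty vector, and 4 groups carried OKM with SOX1, SOX2, SOX3 or GMNN. Of induced pluripotent stem cells (iPSC) there were 3 lines, named G6Gm, G3 and Dlx3RNAi, with the same strain, sex and age label as the fibroblasts. The last of them carried an RNA interference treatment against Dlx3, and the labels do not explain the names G6Gm and G3. Embryonic stem cell (ESC) lines were R1, of strain 129, and B6, of strain C57BL\6.

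All lines grew on mitomycin C-treated fibroblast feeders in medium with a MEK inhibitor and a GSK3 inhibitor, which leukaemia inhibitory factor could replace, so their RNA may include feeder RNA. The time from infection to harvest is not given in the sources used here. Nothing says whether the arrays of a group came from separate cultures, so p-values measure only the spread between arrays, which may be technical.

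Ligands of this family bind pairs of type I and type II receptor kinases. TGF-beta and activin receptors act through SMAD2 and SMAD3, BMP receptors through SMAD1 and SMAD5, and both branches share SMAD4. SMAD6, SMAD7, SKI and SKIL are inhibitors inside the cell, while follistatin, gremlin, chordin and Sostdc1 bind ligands outside it. In fibroblasts TGF-beta is known for matrix genes and the mesenchymal state. In mouse embryonic stem cells BMP4 is known to induce the ID genes, which hold back differentiation.

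The ID genes are the classical direct targets of SMAD1 and SMAD5, and Id2, Id3 and Id4 took different directions in the cultures described here, so the 250 bases before their annotated starts are shown (RefSeq, GRCm38.p6, each 5′ to 3′ on the gene's strand). Capitals mark GGCGCC, the core of the BMP-responsive SMAD site, and CAGAC or its complement GTCTG, the SMAD3 and SMAD4 element. The windows were chr4:136143572-136143821 on the plus strand for Id3, chr12:25096093-25096342 on the minus strand for Id2 and chr13:48260866-48261115 on the plus strand for Id4.
Id3: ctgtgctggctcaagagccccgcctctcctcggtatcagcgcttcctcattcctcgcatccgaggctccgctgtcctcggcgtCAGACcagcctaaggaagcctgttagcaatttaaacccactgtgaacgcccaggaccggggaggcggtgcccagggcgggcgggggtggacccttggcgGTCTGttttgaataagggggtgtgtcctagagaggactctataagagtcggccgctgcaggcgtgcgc
Id2: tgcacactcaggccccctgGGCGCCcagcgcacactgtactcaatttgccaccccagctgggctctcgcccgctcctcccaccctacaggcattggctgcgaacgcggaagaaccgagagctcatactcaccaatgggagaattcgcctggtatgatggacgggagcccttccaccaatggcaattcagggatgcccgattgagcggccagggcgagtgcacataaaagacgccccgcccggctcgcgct
Id4: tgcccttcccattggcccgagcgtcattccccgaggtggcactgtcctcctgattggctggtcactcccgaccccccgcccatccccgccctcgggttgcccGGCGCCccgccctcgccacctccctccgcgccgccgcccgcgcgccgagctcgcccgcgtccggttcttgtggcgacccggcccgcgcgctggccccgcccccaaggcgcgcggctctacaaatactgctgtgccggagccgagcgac
GGCGCC reads the same on both strands and does not overlap CAGAC. It occurred 1 time each in the Id2 and Id4 windows, starting at -231 and -148 from the gene start, and 0 times in the Id3 window. CAGAC or GTCTG occurred 2 times in the Id3 window, at -167 and -68, and 0 times in the windows of Id2 and Id4. Of 32851 RefSeq promoter windows of this length, 9.59% held GGCGCC and 42.2% held CAGAC on either strand. These are matches of letters, and binding was not measured.

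The arrays fell into 5 sets that had been normalized separately, and tests were made within a set only. ESC B6 was alone in its set, and MEF2 EV with OKM+EV, the 4 OKM groups with a second factor, all SKM groups with MEF1 EV, and MEF with the other lines made up the rest. Median array intensities ran from 295.886 to 434.167 arbitrary units over the 5 sets, and precision is limited by how few arrays a group had. OKM+EV replicate 3 stood apart from replicates 1 and 2, with correlations of 0.843 and 0.884 over all genes against 0.986 between replicates 1 and 2. The OKM+SOX2 arrays correlated at 0.905. CEBPa+SKM, HNF4a+SKM and GRB2+SKM were as close to each other as arrays of a single group: their group means differed by a median of 0.138 to 0.141 on the log2 scale, against 0.109 to 0.205 between arrays of one group and 0.385 to 0.598 from the other 8 groups of the set. Their array medians were 413 to 416, above the 401 to 408 of those groups. Of the 13 factors delivered beside SKM or OKM, 6 had a probe with values in their own set, and for 0 of these did the factor's arrays lie above every other array. For Gata4 the GATA4+SKM arrays were the lowest of their set (230 to 379 against 379 to 1100), and Sox1 read 74.2 to 90.1 with OKM+SOX1 against 85.6 to 160. The Dlx3 probe read 254 to 384 in Dlx3RNAi, inside the 92.3 to 615 of its set. Inside the range of their other arrays were also Pou5f1 with OCT4 (158 to 170 against 60.7 to 229) and Gata6 with GATA6 (1668 to 1948 against 907 to 5837). The same held for Grb2 with GRB2 (2692 to 3072 against 2316 to 4112) and Sox3 with SOX3 (142 to 161 against 97.5 to 185). The probes thus bear out none of these labels, and nothing in the sources used here says whether they can read the delivered RNA. Group names, and every direction given for a group, follow the libraries' labels. Pluripotency markers summed to 675 to 683 in MEF and to 9993 to 17897 in the 4 lines of that set, with 5 of 10 markers measured, while they stayed between 510 and 1709 in the SKM set with 4 measured.

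The first comparison set iPSC G6Gm, G3 and Dlx3RNAi and ESC R1, each line with equal weight, against uninfected MEF. The activin subunit Inhba, the inhibin subunit Inhbe, Bmp4 and the SMAD inhibitors Smad7 and Skil rose in the lines, whereas the TGF-beta type II receptor Tgfbr2, the co-receptor Tgfbr3, Smad3, Id4, follistatin (Fst) and the matrix protein gene Tgfbi fell. Of 60 members tested, 12 rose and 25 fell, where 57.8% of all 11991 genes were called, 28.7% as higher and 29.1% as lower. The share of members called was thus close to that of all genes, with a median log2 difference of -0.18 for members and 0.03 for all genes. Of the 37 calls, 32 held without any one array. Adjusted p-values are from limma, Benjamini-Hochberg over all genes of a comparison, with calls at 0.05.

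Among ligands, 5 of 17 rose and 5 fell. Inhba, whose dimer is activin A, read 191 and 185 on the MEF arrays, 2498 and 2482 in G6Gm, 827 and 800 in G3, 1622 and 1818 in R1 and 2247 and 2347 in Dlx3RNAi. Every line array lay above both MEF arrays, and G3 was the lowest line. The log2 difference was 2.96 (SE 0.12, adjusted p = 6.03e-19), or 7.80-fold. Inhbe, an inhibin subunit best known from liver, read 134 and 119 in MEF, 991 and 1010 in G6Gm, 2395 and 2390 in G3, 942 and 903 in R1 and 1244 and 1300 in Dlx3RNAi. Here G3 was the highest line instead, and no line array came near MEF (log2 difference 3.07, SE 0.25, adjusted p = 6.9e-12). Bmp4 read 425 and 388 in MEF, 1273 and 1137 in G6Gm, 740 and 1460 in G3, 1691 and 1799 in R1 and 1689 and 1774 in Dlx3RNAi. All line arrays were above MEF, with the G3 arrays far apart from each other (log2 difference 1.70, SE 0.32, adjusted p = 4.45e-05). Gdf3, an embryonic ligand of the Nodal branch, and the stress-responsive Gdf15 rose by log2 differences of 1.72 and 0.90. Tgfb1, Tgfb3, Bmp6, Bmp8b and Gdf10 fell (Tgfb1 by 0.53, with Tgfb3 at -0.71), with Gdf10 at 301 and 374 in MEF and at most 61.1 on any line array. For Tgfb3 the call rested on some lines only: the log2 difference from MEF was -2.30 for G3 and -0.77 for R1, but -0.05 for G6Gm and 0.28 for Dlx3RNAi, and the last 2 did not pass. Tgfb2 did not pass (0.59, adjusted p = 0.0995).

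**Figure D1:**
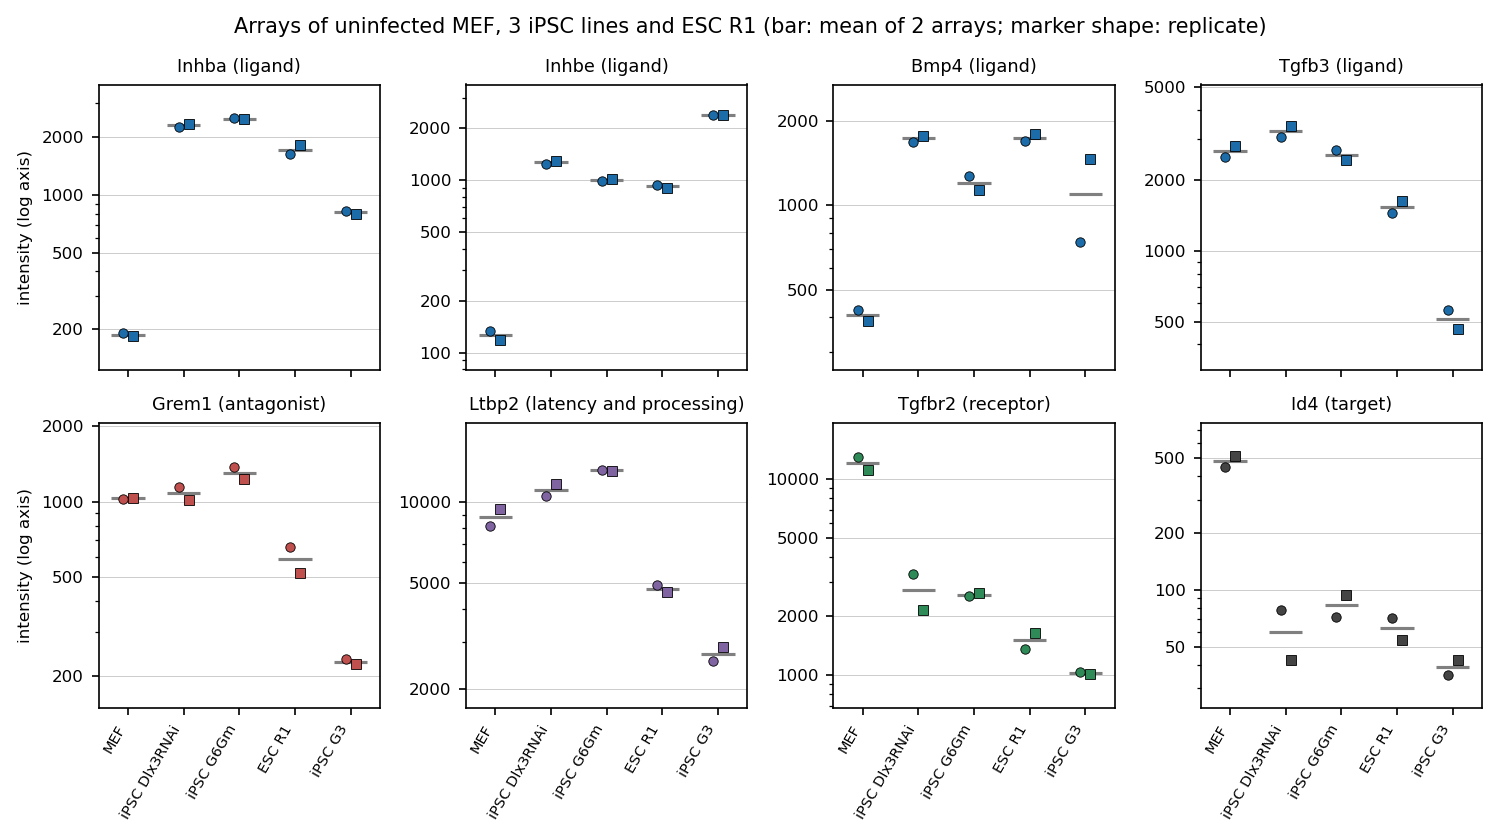
Intensity (arbitrary units, log axis) of Inhba, Inhbe, Bmp4, Tgfb3, Grem1, Ltbp2, Tgfbr2 and Id4 on each array of MEF and the 4 pluripotent lines, 1 point per array. Inhba lies between 800 and 2498 in the lines against 185 to 191 in MEF, while iPSC G3 has the lowest Tgfb3, Grem1 and Ltbp2 arrays.

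Of the 7 antagonists, Fstl3 rose and Fst, Grem1 and Chrdl1 fell, Chrdl1 by 0.49 and not without MEF replicate 1 (-0.55) or 2 (-0.43). Fst, which binds activin, read 1160 and 1665 in MEF, 679 and 592 in G6Gm, 142 and 111 in G3, 283 and 220 in R1 and 683 and 502 in Dlx3RNAi. All line arrays were below MEF, and those of G3 were the lowest (log2 difference -1.95, SE 0.21, adjusted p = 4.34e-09). Fstl3, a relative that also binds activin, went the other way, from 993 and 794 in MEF to between 2263 and 4202 in the lines (log2 difference 1.70, adjusted p = 4.94e-11). Its second probe gave a log2 difference of 0.70. Grem1, a BMP antagonist, read 1028 and 1036 in MEF, 1379 and 1227 in G6Gm, 235 and 224 in G3, 658 and 518 in R1 and 1147 and 1013 in Dlx3RNAi, so that MEF lay inside the range of the lines. Its mean difference of -0.61 (adjusted p = 0.000717) combined -2.02 for G3 and -0.79 for R1 with 0.33 for G6Gm and 0.06 for Dlx3RNAi, of which the last 2 did not pass.

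Latency and processing genes, which hold TGF-beta in the matrix or cut procollagen and chordin, gave 3 falls among 4. Ltbp3 read 4832 and 5148 in MEF and between 695 and 2233 in the lines, with no overlap (log2 difference -1.90, SE 0.12, adjusted p = 1.57e-14). Bmp1, the procollagen protease, and Ltbp4 fell by 0.93 and 0.51 on the log2 scale with overlapping arrays, and the Ltbp4 call was lost without MEF replicate 1 (-0.49). Ltbp2 did not pass as a mean over lines, and is described with the single lines.

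Receptors fell in 5 cases and rose in 2 of 8. Tgfbr2, the receptor that binds TGF-beta, read 12967 and 11210 in MEF, 2534 and 2623 in G6Gm, 1034 and 1019 in G3, 1363 and 1651 in R1 and 3269 and 2164 in Dlx3RNAi. The lines lay well below MEF on all arrays (log2 difference -2.72, SE 0.74, adjusted p = 0.00418). The SE for Tgfbr2 is pooled over all arrays with a value for it, which leaves out the SKM set. Among these, the OKM+SOX2 arrays read 203 and 8988. Tgfbr3, the co-receptor betaglycan, fell by 1.61 (adjusted p = 7.83e-06), from 1428 and 1197 in MEF to between 180 and 696 in the lines. The type II receptors for activins parted: Acvr2a fell by 1.30 (adjusted p = 5.88e-10) and Acvr2b rose by 0.76 (adjusted p = 0.00411). The Acvr2b call was lost without MEF replicate 2 (0.64, adjusted p = 0.0842). The type I receptors Acvr1 and Bmpr1b fell by 0.97 and 0.93, and Acvrl1 rose by 0.83 with overlapping arrays, since G3 lay below MEF.

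Smad3, Smad6, Ski and Tgfbrap1 fell and Smad7 and Skil rose among the 10 signal transducers and regulators. Smad3 read 2590 and 3009 in MEF and between 727 and 1433 in the lines (log2 difference -1.55, SE 0.12, adjusted p = 1.59e-12). Smad7 read 268 and 406 in MEF, 904 and 992 in G6Gm, 597 and 549 in G3, 1265 and 1315 in R1 and 884 and 869 in Dlx3RNAi. No line array reached down to MEF (log2 difference 1.34, SE 0.24, adjusted p = 1.58e-05). Skil rose by 1.08 (adjusted p = 3.92e-07), from 1090 and 1201 to between 1980 and 3225. Ski, its relative, fell by 0.86 (adjusted p = 0.00084). The Smad6 fall of 0.50 on the log2 scale was lost without MEF replicate 1 (-0.35, adjusted p = 0.0874). Smad1, Smad2, Smad4 and Smad5 did not pass.

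Among targets, Id4 read 449 and 511 in MEF, 71.9 and 93.3 in G6Gm, 35.3 and 42.4 in G3, 71.0 and 54.0 in R1 and 77.6 and 42.3 in Dlx3RNAi. All line arrays lay far below MEF (log2 difference -2.49, SE 0.15, adjusted p = 5.85e-13), and at these levels the size depends on the pseudocount. Tgfbi, named for its induction by TGF-beta, fell by 2.24 (adjusted p = 6.87e-11). Id1, Id2 and Id3 did not pass, with log2 differences of -0.37, 0.20 and -0.31 and adjusted p-values of 0.216, 0.365 and 0.135. Of the genes taken by name only, Fstl4 and Skint6 rose and Skida1, Skiv2l and Tgfb1i1 fell among 9, with the Fstl4 rise of 0.44 lost without MEF replicate 1 (0.42) or 2 (0.45).

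A further list held 60 other named genes of the pathway, such as processing enzymes, matrix partners and targets. Of its 51 genes tested in these lines, 9 rose and 23 fell. Snai2, a mesenchymal transcription factor, had a log2 difference of -3.36 (adjusted p = 9.7e-16), the BMP co-receptor gene Rgma of -2.49, Twist1 of -1.95 and the matrix proteoglycan gene Bgn of -1.76. Summed fibroblast markers, 9 of 12 measured, share Twist1, Dcn and Postn with this list, so the sum is not independent of it. These markers summed to 60194 to 65416 in MEF, 44362 to 50100 in Dlx3RNAi, 35048 to 36407 in G6Gm, 24226 to 25810 in R1 and 12851 to 13101 in G3. Their part in the result was not tested. In RNA from whole cultures, fewer cells of a type and less RNA per cell cannot be told apart.

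**Figure D2:**
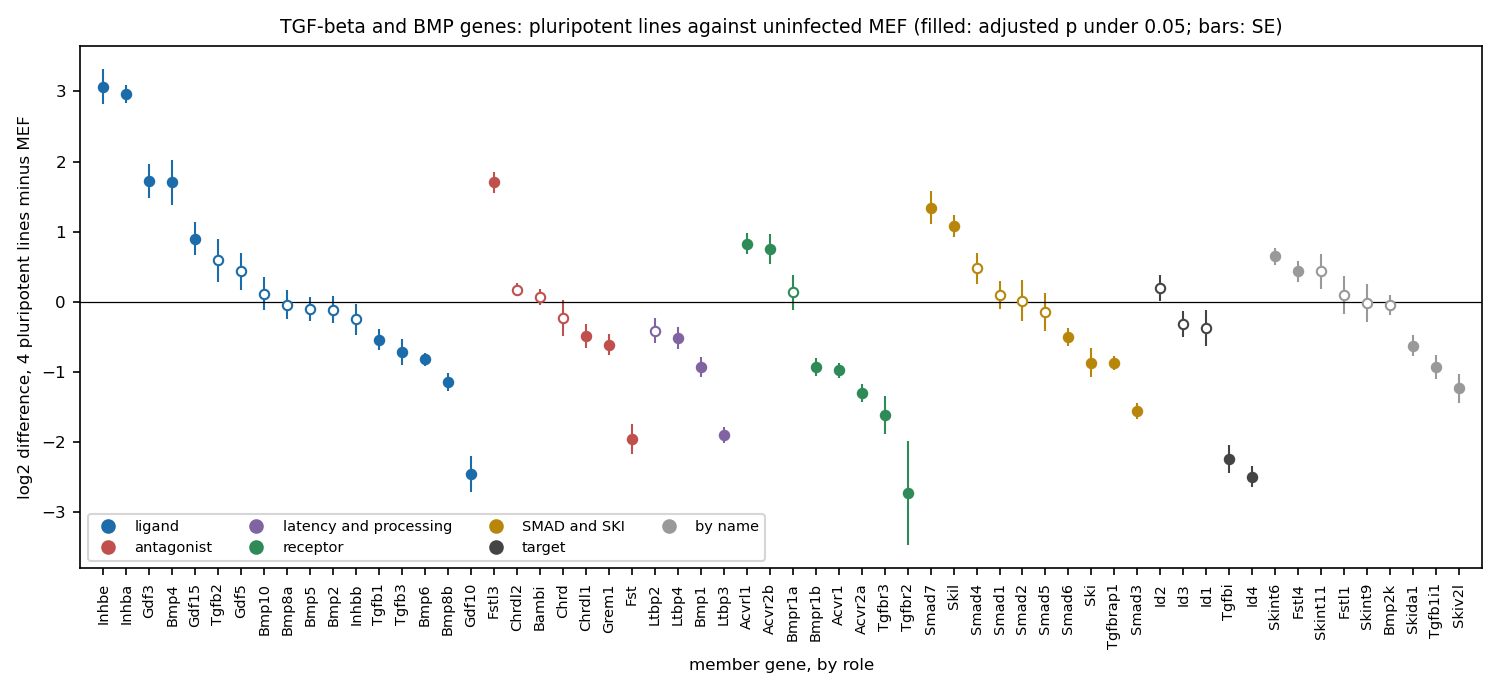
Log2 difference of the 4 pluripotent lines from MEF for each member, grouped by role, with the standard error as a bar and filled points for adjusted p under 0.05. Inhbe (3.07) and Inhba (2.96) lie highest, and Tgfbr2 (-2.72), Id4 (-2.49) and Gdf10 (-2.46) lie lowest.

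Each iPSC line was next set against ESC R1, so the 3 comparisons share the R1 arrays and are not independent of each other. Members rose mostly in G6Gm and Dlx3RNAi and fell mostly in G3. In G6Gm 16 of 60 rose and 1 fell, where 17.6% of all genes were called, 9.79% higher and 7.78% lower. In Dlx3RNAi 14 rose and 2 fell (19.4% of all genes called, 9.62% higher and 9.79% lower), and in G3 2 rose and 12 fell (8.33%, 4.34% higher and 3.99% lower). The median log2 difference of members was 0.11, 0.11 and -0.24 in that order, against -0.01, 0.01 and 0.00 for all genes. The counts depended on the arrays: without G6Gm replicate 1 or 2 or R1 replicate 1 or 2, the G6Gm count of 17 fell to 10, 8, 9 or 10. Likewise the G3 count of 14 fell to 8, 9, 7 or 7 without G3 replicate 1 or 2 or R1 replicate 1 or 2. Calls that held without any one array numbered 7 of 17 in G6Gm, 4 of 14 in G3 and 10 of 16 in Dlx3RNAi.

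Among latency and processing genes, Ltbp2, a protein of elastic microfibrils, read 13260 and 13136 in G6Gm, 10566 and 11748 in Dlx3RNAi, 4888 and 4599 in R1 and 2539 and 2880 in G3. The first 2 lines were above R1 and G3 was below it, with no overlap. The log2 differences from R1 were 1.47 (SE 0.22, adjusted p = 0.000105), 1.23 (adjusted p = 0.000571) and -0.80 (adjusted p = 0.0296). The G3 call on Ltbp2 was lost without any one of its 4 arrays, at -0.71 and -0.89 without G3 replicate 1 and 2 and at -0.76 and -0.85 without R1 replicate 1 and 2. Bmp1 read 655 and 672 in G6Gm, 723 and 655 in Dlx3RNAi, 263 and 226 in R1 and 163 and 160 in G3. It rose by 1.33 (adjusted p = 2.67e-06) and 1.38 (adjusted p = 1.38e-06) in the first 2 lines. Ltbp3 rose by 0.67 and 0.87 in these lines and fell by 0.65 in G3, where it was lost without R1 replicate 2 (-0.60).

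Of the ligands, Tgfb3 read 2683 and 2434 in G6Gm, 3061 and 3417 in Dlx3RNAi, 1456 and 1635 in R1 and 561 and 467 in G3. These values fall in 3 ranges without overlap, G3 below R1 and R1 below G6Gm and Dlx3RNAi. Against R1 it rose by 0.72 in G6Gm (adjusted p = 0.0303) and 1.05 in Dlx3RNAi (adjusted p = 0.00138), and fell by 1.53 in G3 (adjusted p = 3.78e-05). The G6Gm call was lost without any one of its 4 arrays, at 0.65 and 0.79 without G6Gm replicate 1 and 2 and at 0.63 and 0.80 without R1 replicate 1 and 2. Inhba fell by 1.05 in G3 (adjusted p = 2.25e-05) and rose by 0.53 in G6Gm (adjusted p = 0.0143). Its G6Gm call was lost without G6Gm replicate 1 (0.52), G6Gm replicate 2 (0.53) or R1 replicate 1 (0.45). Inhbe rose by 1.35 in G3 (adjusted p = 0.00478), and missed the threshold without R1 replicate 2 (1.32, adjusted p = 0.0504). Tgfb2 and Bmp4 did not pass in any of the 3 lines, with log2 differences in G6Gm, G3 and Dlx3RNAi of 1.01, -0.37 and 1.02 for Tgfb2 and -0.52, -0.73 and -0.01 for Bmp4. Tgfb1 rose by 0.57 in G6Gm, a call lost without any one of the 4 arrays (0.45 to 0.68), and did not pass in G3 (-0.19) or Dlx3RNAi (0.35). Inhba did not pass in Dlx3RNAi (0.41).

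The antagonist Grem1 rose by 1.11 in G6Gm (adjusted p = 4.83e-05) and 0.85 in Dlx3RNAi (adjusted p = 0.00109) and fell by 1.24 in G3 (adjusted p = 2.72e-05). Fst rose by 1.24 in G6Gm (adjusted p = 0.00122) and 1.13 in Dlx3RNAi (adjusted p = 0.00267), and did not pass in G3 (-0.84). In Dlx3RNAi the Fst call was lost without R1 replicate 2 (0.97) or Dlx3RNAi replicate 1 (0.92). Acvrl1, a type I receptor known from endothelium, fell by 1.46 in G3 (adjusted p = 3.38e-06), where it read 587 and 834 against 1943 and 2034 in R1. Tgfbr3 fell by 1.36 in G3 (adjusted p = 0.00933), a call lost without G3 replicate 2 (-1.13) or R1 replicate 1 (-1.16). Smad7 fell by 1.13 in G3 (adjusted p = 0.0139), lost without any of the 4 arrays (-1.19 and -1.07 without G3 replicate 1 and 2, -1.16 and -1.10 without R1 replicate 1 and 2). In Dlx3RNAi the falls were Acvr2b, by 0.78 (adjusted p = 0.0443) and lost without any one of the 4 arrays (-0.62 to -0.95), and Smad3, with a log2 difference of -0.50 (adjusted p = 0.0157) that was lost without R1 replicate 1 (-0.27) or Dlx3RNAi replicate 2 (-0.35). Tgfb1i1, an adaptor of focal adhesions taken by name, rose by 1.11 in Dlx3RNAi (adjusted p = 0.000309). Smad6 rose by 0.46 in G6Gm and 0.53 in G3, and each call was lost without any one of its 4 arrays (0.35 to 0.58 and 0.50 to 0.56). Smad6 did not pass in Dlx3RNAi (0.10), nor Smad7 in G6Gm (-0.43) or Dlx3RNAi (-0.54).

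Of the ID genes, Id1 rose by 1.11 in G6Gm (adjusted p = 0.0146), from 1628 and 1536 in R1 to 3481 and 3404, and the call was lost without any one of the 4 arrays (1.09 and 1.12 without G6Gm replicate 1 and 2, 1.15 and 1.07 without R1 replicate 1 and 2). Id3 rose by 0.72 in G6Gm and 0.68 in Dlx3RNAi. Both Id3 calls were lost without R1 replicate 1 (0.45 and 0.40), without replicate 1 of the iPSC line (0.76 and 0.74) and without its replicate 2 (0.68 and 0.62). Id2 (-0.03 to 0.52) and Id4 (-0.41 to 0.28) did not pass in any line against R1, nor did Id1 in G3 (0.29) and Dlx3RNAi (0.45) and Id3 in G3 (-0.55).

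Fibroblast marker sums were lowest in G3 and highest in Dlx3RNAi among the lines, as given above. Pluripotency markers summed to 11765 to 12404 in G6Gm and 9993 to 10706 in Dlx3RNAi, against 15657 to 17311 in G3 and 17487 to 17897 in R1, and 2, 3 and 0 of 5 fell against R1 in G6Gm, Dlx3RNAi and G3. Epithelial markers, 6 of 10 measured, summed to 5064 to 5100 in G6Gm, 6318 to 6693 in Dlx3RNAi, 8501 to 8583 in R1 and 11607 to 12293 in G3, and 4, 3 and 0 of 6 fell in the same order. The part of these markers in the member differences was not tested. Mean intensities of Col1a2, a fibrillar collagen gene, were 2863 in G3, 6457 in R1, 10929 in G6Gm, 11893 in Dlx3RNAi and 8817 in MEF. Col1a2 is part of the fibroblast marker sum, which was instead highest in MEF (60194 to 65416). That sum was 44362 to 50100 in Dlx3RNAi and 35048 to 36407 in G6Gm. Of the 51 other pathway genes, 13 rose and 2 fell in G6Gm, 19 rose and 1 fell in Dlx3RNAi, and 1 rose and 9 fell in G3. Pmepa1, a TGF-beta target, rose by 2.06 in G6Gm (adjusted p = 2.66e-05) and 1.70 in Dlx3RNAi. Bmper, a BMP modulator, rose by 1.81 and 1.48 in these lines. The matrix proteoglycan gene Dcn, which is also in the fibroblast marker sum, fell by 1.40 in G3 (limma adjusted p = 4.42e-05).

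In a comparison added after the data had been seen, the iPSC lines were set against each other. G6Gm had 19 members above and 1 below G3 of 60 (19.7% of all genes called, 10.7% higher and 9.01% lower). Dlx3RNAi had 21 above and 2 below (25.3%). Grem1 was 5.10-fold higher in G6Gm than in G3 (log2 difference 2.35, SE 0.18, adjusted p = 7.68e-11), and Ltbp2 4.84-fold (2.27, adjusted p = 4.39e-07). Against G3, Dlx3RNAi was 6.01-fold higher for Tgfb3 (2.59, SE 0.23, adjusted p = 7.94e-10) and 4.74-fold higher for Acvrl1 (2.25, adjusted p = 2.4e-10). Inhbe was lower in both, by 1.23 in G6Gm (adjusted p = 0.00454) and 0.90 in Dlx3RNAi (adjusted p = 0.0344). Fst was higher than in G3 by 2.08 in G6Gm (adjusted p = 9.38e-07) and 1.97 in Dlx3RNAi (adjusted p = 1.64e-06), and Id3 by 1.27 and 1.23. In Dlx3RNAi Grem1 was higher by 2.09, Ltbp2 by 2.03 and Inhba by 1.46, and in G6Gm Tgfb3 by 2.25 and Inhba by 1.58. Tgfb2 was higher by 1.39 in both, Tgfb1 by 0.75 in G6Gm and 0.54 in Dlx3RNAi and Id4 by 0.69 in G6Gm, and Smad6 was lower in Dlx3RNAi (-0.43). Of these, Tgfb2 was lost without G3 replicate 1 in both (1.14), without G6Gm replicate 1 (1.26) and without Dlx3RNAi replicate 2 (1.37). Tgfb1 was lost without G3 replicate 1 or G6Gm replicate 2 (0.66 each) in G6Gm and without any of the 4 arrays in Dlx3RNAi (0.44 to 0.63). Id4 in G6Gm was lost without G3 replicate 1 (0.62) or G6Gm replicate 2 (0.55), and Smad6 in Dlx3RNAi without any of the 4 arrays (-0.33 to -0.54). Bmp4, Smad7, Id1 and Id2 did not pass in either (0.14 to 0.82), nor Smad6 in G6Gm (-0.07) or Id4 in Dlx3RNAi (0.35). The Dlx3RNAi difference in Inhbe was lost without any one of its 4 arrays (-0.89 and -0.90 without G3 replicate 1 and 2, -0.86 and -0.93 without Dlx3RNAi replicate 1 and 2).

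In fibroblasts, SKM without a further factor was set against the empty vector. The inhibin beta B subunit Inhbb, Grem1 and Inhba rose with SKM+EV, and Id2, Id4, 3 receptors, Ltbp3 and Smad3 fell. Of 47 members tested in this set 3 rose and 7 fell, where 19.7% of 10006 genes were called, 9.99% higher and 9.69% lower. The medians were -0.11 for members and -0.02 for all genes.

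Inhbb read 304 and 334 in MEF1 EV and 1498 and 1103 in SKM+EV, with no overlap (log2 difference 1.91, SE 0.29, adjusted p = 1.26e-05). Grem1 read 754 and 720 against 1511 and 1515 (log2 difference 1.01, SE 0.18, adjusted p = 0.000121). Inhba rose by 0.66 (adjusted p = 0.00196). The subunits Inhba and Inhbb were therefore higher with SKM, while Inhbe, also measured in this set, was not called as higher. The gremlin arrays of each group lay close together. Id2 read 8153 and 5540 in MEF1 EV and 3230 and 2772 in SKM+EV (log2 difference -1.16, SE 0.23, adjusted p = 0.000342), and Id4 781 and 876 against 344 and 449 (-1.01, adjusted p = 0.000261). Id1 (0.66) and Id3 (0.13) did not pass. The BMP type I receptor gene Bmpr1a fell by 1.13 (adjusted p = 0.00931), a call lost without MEF1 EV replicate 1 (-0.99) or SKM+EV replicate 2 (-0.92). Ltbp3 fell by 0.88, Smad3 by 0.82 and Acvr1 by 0.78, each with an adjusted p of at most 0.000118. Bmp4, Tgfb2, Tgfb3, Fst, Smad6 and Smad7 did not pass, with log2 differences of -0.01, 0.03, 0.01, -0.37, -0.39 and -0.24.

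Epithelial and keratinocyte markers moved with SKM: 6 of 10 were measured, and they summed to 1971 to 2324 in MEF1 EV and 84558 to 87837 in SKM+EV. Fibroblast markers summed to 171508 to 176004 and 139011 to 149120, and adipocyte markers, 3 of 5 measured, to 3435 to 3621 and 527 to 661. Their part in the member differences was not tested. Of 46 other pathway genes 3 rose and 6 fell, with Snai2 down by 1.04, Postn by 0.88 and Snai1 by 0.87. The latent TGF-beta docking receptor gene Lrrc32 rose by 0.87. Postn is also in the fibroblast marker sum.

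OCT4+SKM was compared with both MEF1 EV and SKM+EV, and these comparisons share the MEF1 EV or SKM+EV arrays with others. Against MEF1 EV 3 members rose and 14 fell of 47, with 22.4% of all genes called, 11.6% higher and 10.8% lower. Against SKM+EV 2 rose and 7 fell, with 11.0% called, 5.28% higher and 5.73% lower. The median member difference was -0.07 against MEF1 EV and -0.12 against SKM+EV, beside -0.06 and -0.03 for all genes. Without OCT4+SKM replicate 1 the first count of 17 fell to 10. The second count of 9 fell to 4 without SKM+EV replicate 1, SKM+EV replicate 2 or OCT4+SKM replicate 2 and to 5 without OCT4+SKM replicate 1.

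Inhbb read 347 and 366 with OCT4+SKM, near the 304 and 334 of MEF1 EV and below the 1498 and 1103 of SKM+EV (log2 difference from SKM+EV -1.76, SE 0.29, adjusted p = 7.27e-05). Sostdc1, an antagonist of BMP and WNT ligands, read 535 and 543 against 201 and 179 in MEF1 EV and 197 and 252 in SKM+EV. OCT4+SKM was above both groups with no overlap, by 1.37 (adjusted p = 0.00127) and 1.17 (adjusted p = 0.00945), and by 0.52 and 0.48 on its second probe. The second call was lost without SKM+EV replicate 1 (1.01), OCT4+SKM replicate 1 (1.18) or OCT4+SKM replicate 2 (1.16). Fstl3 fell by 0.90 (adjusted p = 0.00126) and Tgfbrap1, a receptor-associated protein gene, by 0.71 (adjusted p = 0.000232) against SKM+EV. Tgfbr3 fell by 1.03 against SKM+EV (adjusted p = 0.0477), a call lost without any of the 4 arrays (-0.94 and -1.12 without SKM+EV replicate 1 and 2, -0.90 and -1.16 without OCT4+SKM replicate 1 and 2). Acvr2b read 1600 and 1937 with OCT4+SKM against 894 and 839 in SKM+EV and rose by 1.00 (adjusted p = 0.0151), lost without SKM+EV replicate 1 (1.04), SKM+EV replicate 2 (0.95) or OCT4+SKM replicate 2 (0.86). Bmp1 fell by 0.63 (adjusted p = 0.0176), lost without any one of the 4 arrays (-0.57 to -0.69). Acvrl1 fell by 0.90, lost without SKM+EV replicate 2 (-0.61) or OCT4+SKM replicate 2 (-0.74).

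Against MEF1 EV, Id4 fell by 1.30 with OCT4+SKM (adjusted p = 1.09e-05), Ltbp3 by 1.18 (adjusted p = 4.26e-07) and Acvrl1 by 1.09 (adjusted p = 6.18e-05). Acvr1 had a log2 difference of -0.77 (adjusted p = 7.66e-05). Id2 fell by 0.85 (adjusted p = 0.00651), lost without MEF1 EV replicate 1 (-0.58) or OCT4+SKM replicate 1 (-0.66). Id1 rose by 0.97 (adjusted p = 0.0272), lost without the same 2 arrays (0.66 and 0.80). Bmpr1a fell by 1.25 and Tgfbr3 by 1.16, both also lost without those arrays (-1.11 and -1.04 for Bmpr1a, -1.04 and -1.03 for Tgfbr3). Grem1 rose by 0.65 (adjusted p = 0.0099), lost without MEF1 EV replicate 2 (0.61, adjusted p = 0.0627) or OCT4+SKM replicate 1 (0.61, adjusted p = 0.0747), and the BMP inhibitor Smad6 fell by 0.67 (adjusted p = 0.00283). Bmp4, Tgfb2, Tgfb3, Fst and Smad7 did not pass in either comparison, with log2 differences of -0.64 to 0.44. Against SKM+EV Inhba fell by 0.55 (adjusted p = 0.0155), lost without any one of the 4 arrays (-0.50 to -0.60). No ID gene passed between OCT4+SKM and SKM+EV. Of 46 other pathway genes 4 rose and 6 fell against SKM+EV, led by Eomes, a T-box gene of the mesendoderm, which rose from a mean of 13.7 to 97.1 (adjusted p = 0.000938). Epithelial markers summed to 43383 to 43814, below SKM+EV.

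The 8 factors given in place of OCT4 were each set against SKM+EV, and all 8 comparisons share those 2 arrays. Members called and the share of all genes called differed widely between factors. GATA4+SKM had 5 rises and 19 falls of 47, where 53.8% of all genes were called, 29.0% higher and 24.8% lower. GATA6+SKM had 2 and 16 (22.0% of all genes called, 11.8% higher and 10.2% lower). For SOX7+SKM they were 6 and 3 (12.1%, 6.32% higher and 5.77% lower) and for PAX1+SKM 5 and 3 (15.7%, 9.61% higher and 6.13% lower). CEBPa+SKM had 8 and 3 (34.6%, 20.0% higher and 14.7% lower) and HNF4a+SKM 11 and 5 (42.5%, 22.9% higher and 19.5% lower). GRB2+SKM had 9 and 8 (40.3%, 23.2% higher and 17.1% lower) and MIXL1+SKM 0 and 0 (2.10%, 1.05% each way). Member medians were -0.31 with GATA6 and -0.29 with GATA4, where all genes had -0.04 and 0.06, and lay between -0.06 and 0.14 for the other 6 factors.

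**Figure D3:**
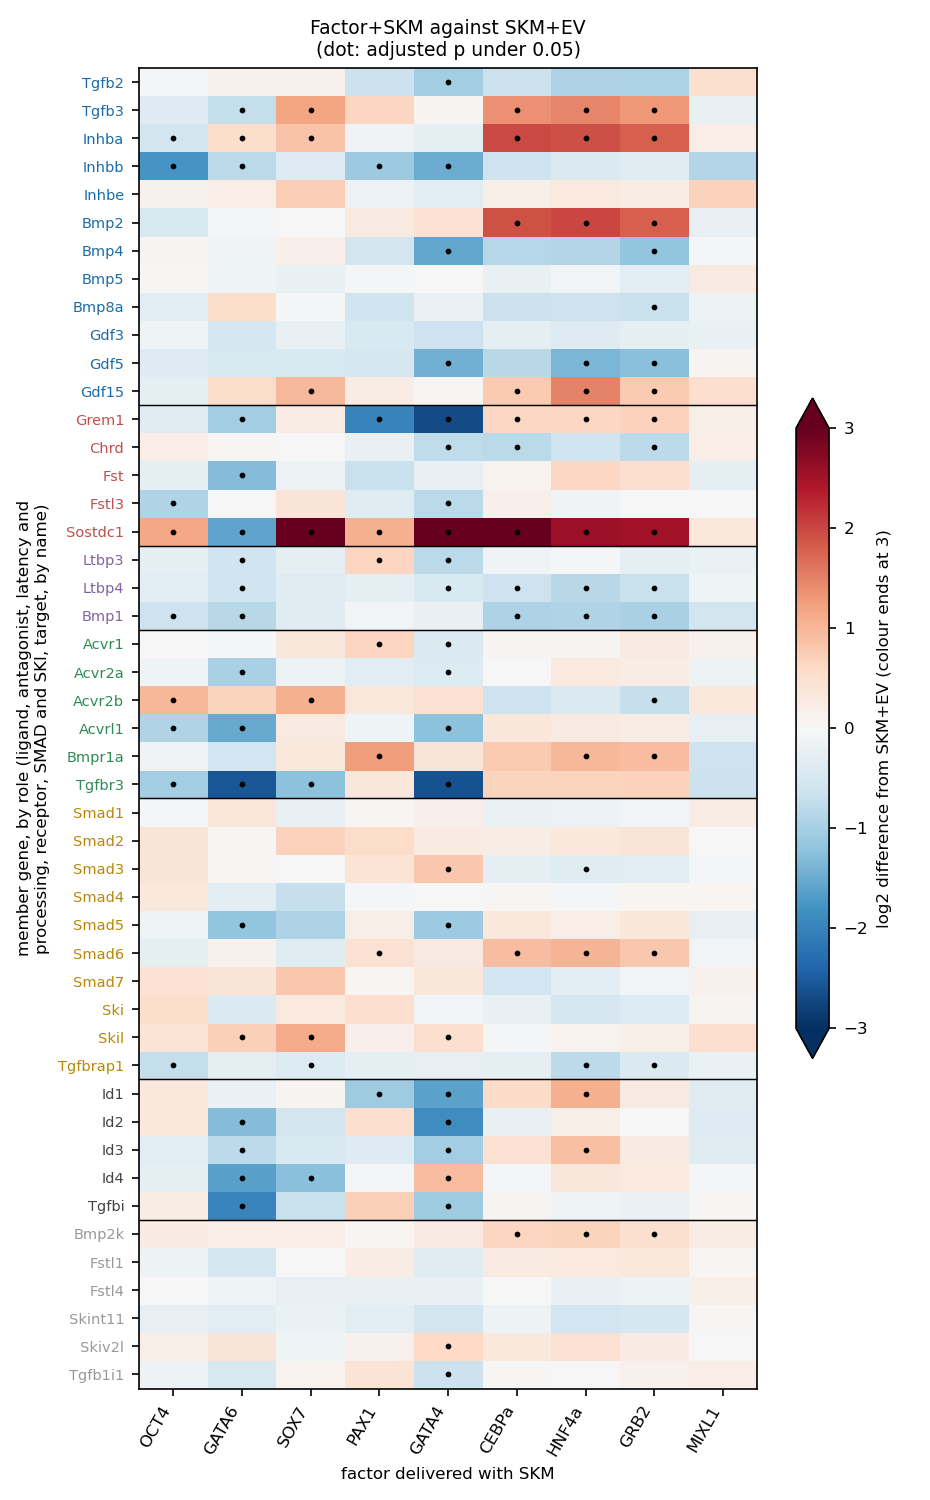
Log2 difference from SKM+EV of the 47 members measured in this set, with 1 column per added factor, colours that end at 3 and a dot for adjusted p under 0.05. Sostdc1 has the widest span, from 4.92 with GATA4 to -1.57 with GATA6, and MIXL1 has no dot.

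The antagonist Sostdc1 spanned the widest range of any member in this set. It read 197 and 252 in SKM+EV, 7380, 8217 and 7458 with GATA4, 2846 and 3115 with SOX7, 2150 and 2288 with CEBPa, 1548 and 1385 with HNF4a, 1539 and 1323 with GRB2, 585 and 423 with PAX1, 287 and 282 with MIXL1 and 36.6 and 74.7 with GATA6. Arrays with 6 of the factors lay clear above SKM+EV, those with MIXL1 were just above it, and those with GATA6 were below every other array. With GATA4 the difference was 4.92 (SE 0.27, adjusted p = 1.15e-13), or 30.3-fold. The other rises were 3.56 with SOX7 (adjusted p = 1.96e-09), 3.14 with CEBPa (adjusted p = 7.65e-09), 2.56 with HNF4a, 2.52 with GRB2 and 1.06 with PAX1 (adjusted p = 0.0155), the last lost without SKM+EV replicate 1 (0.90) or PAX1+SKM replicate 1 (0.84). With GATA6 it fell by 1.57 (adjusted p = 0.000237), and MIXL1 did not pass (0.31). A second Sostdc1 probe gave the same signs, at 3.34 with GATA4, 3.11 with SOX7 and -0.71 with GATA6.

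Among ligands, Inhba, Bmp2 and Tgfb3 rose with CEBPa, HNF4a and GRB2. Inhba read 204 and 198 in SKM+EV, 908 and 882 with CEBPa, 874 and 849 with HNF4a and 792 and 771 with GRB2. Bmp2, a ligand of the SMAD1 and SMAD5 branch, read 204 and 200, 915 and 799, 847 and 974, and 807 and 761 in the same order. For both genes the 3 factors were above every other group of the set. The log2 differences were 1.99, 1.94 and 1.80 for Inhba (adjusted p = 2.14e-11, 2.12e-11 and 1.97e-10) and 1.92, 2.00 and 1.80 for Bmp2 (adjusted p = 2.67e-07, 8.87e-08 and 8.59e-07). Tgfb3 rose by 1.37, 1.46 and 1.30 with these factors and by 1.18 with SOX7 (adjusted p = 0.000655), and it fell by 0.72 with GATA6. That fall was lost without SKM+EV replicate 1 (-0.60) or GATA6+SKM replicate 2 (-0.60). As given above, the CEBPa, HNF4a and GRB2 arrays were as alike over all genes as arrays of 1 group, so these are not shown to be separate observations. Their array medians also lay above those of the other groups. After quantile normalization of the set again, the differences were 1.98, 1.93 and 1.80 for Inhba, 1.91, 2.00 and 1.79 for Bmp2 and 1.35, 1.44 and 1.28 for Tgfb3.

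**Figure D4:**
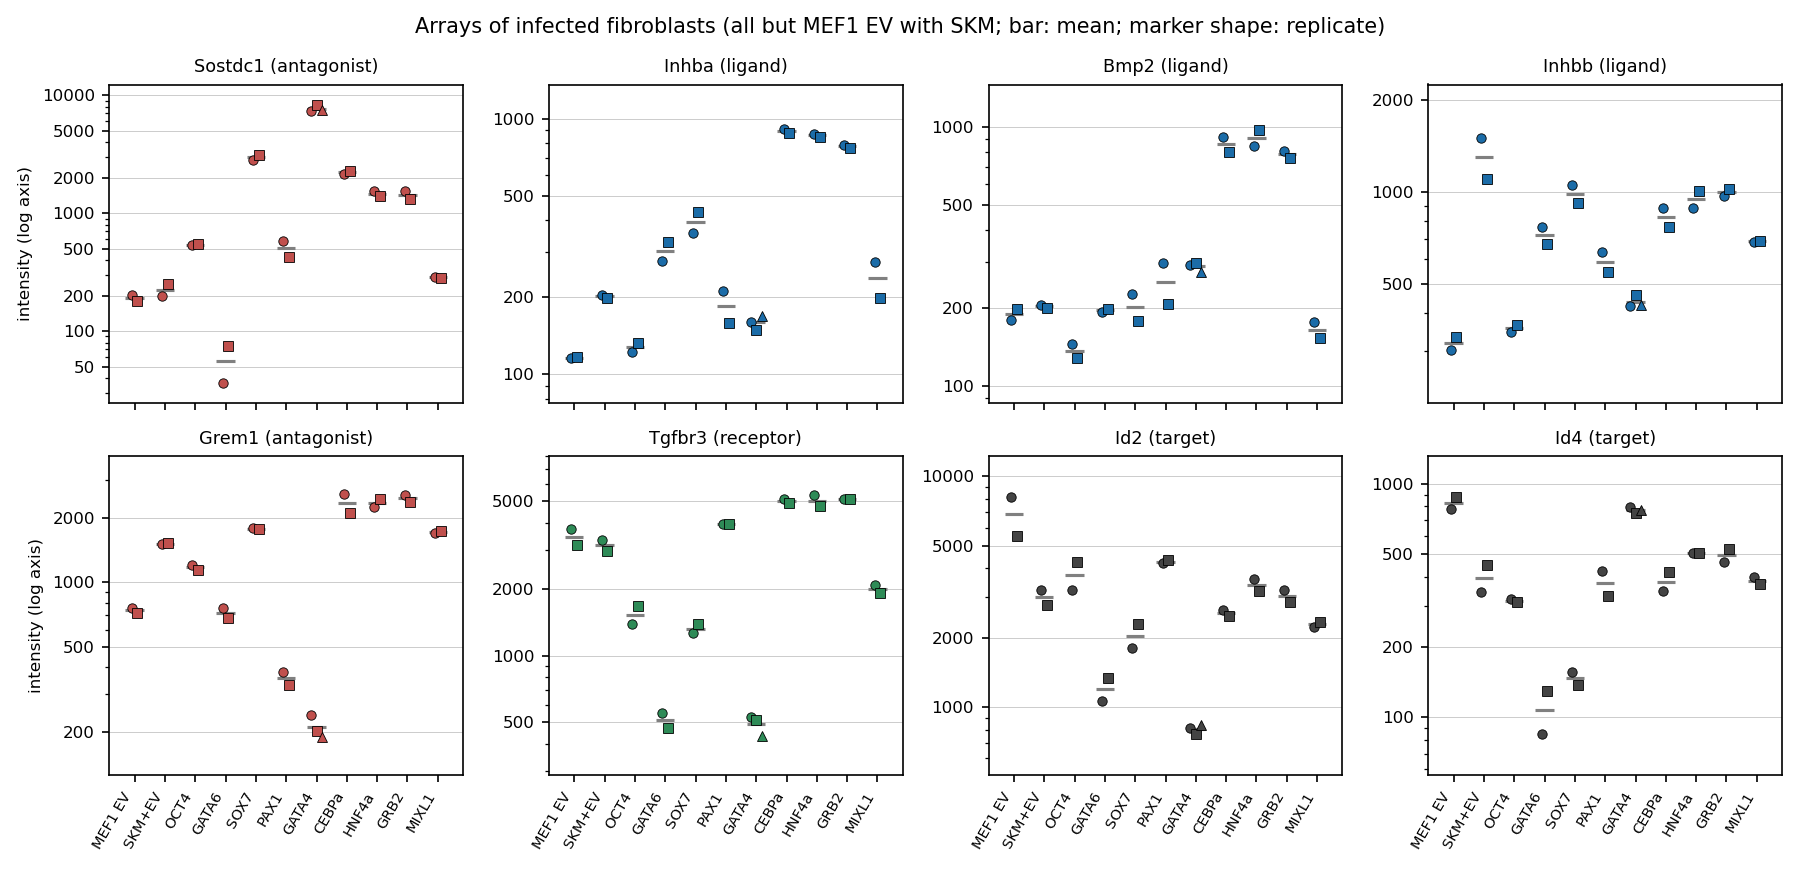
Intensity (arbitrary units, log axis) of Sostdc1, Inhba, Bmp2, Inhbb, Grem1, Tgfbr3, Id2 and Id4 on each array of MEF1 EV and the SKM groups, 1 point per array. Inhba and Bmp2 lie between 761 and 974 with CEBPa, HNF4a and GRB2, and Grem1, Tgfbr3 and Id2 have their lowest group mean with GATA4.

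Of the ligands and their subunits, Inhba rose by 0.87 with SOX7 (adjusted p = 0.000176) and by 0.52 with GATA6 (adjusted p = 0.0131), the latter lost without SKM+EV replicate 1 (0.54), SKM+EV replicate 2 (0.50) or GATA6+SKM replicate 2 (0.41). Inhbb fell by 1.49 with GATA4 (adjusted p = 3.62e-05) and 1.09 with PAX1 (adjusted p = 0.00935). The PAX1 call was lost without SKM+EV replicate 1 (-0.87) or PAX1+SKM replicate 2 (-0.99). Bmp4 read 469, 520 and 697 with GATA4 against 1846 and 1557 in SKM+EV, and fell by 1.56 (adjusted p = 0.0009). With GRB2 Bmp4 fell by 1.19 (adjusted p = 0.0215), a call lost without SKM+EV replicate 1 (-1.06) or GRB2+SKM replicate 1 (-0.98). Gdf5, a ligand of joint and cartilage formation, fell by 1.44 with GATA4, 1.37 with HNF4a (adjusted p = 0.00169) and 1.27 with GRB2. The GRB2 call on Gdf5 was lost without SKM+EV replicate 1 (-1.07) or GRB2+SKM replicate 1 (-1.04). Tgfb2 fell by 1.05 with GATA4 on its brighter probe (adjusted p = 0.0142), whereas its second probe gave 1.21, and the call was lost without SKM+EV replicate 1 (-0.90). With the other 7 factors Tgfb2 did not pass, at -0.95 to 0.49 on the brighter probe and 0.21 to 1.48 on the second. The probes had opposite signs with PAX1, CEBPa, HNF4a and GRB2 too.

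Ligands that did not pass were Bmp4 with the other 6 factors (-0.89 to 0.16), Inhba with PAX1, GATA4 and MIXL1 (-0.11, -0.29 and 0.19) and Tgfb3 with the same 3 (0.64, 0.08 and -0.22).

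Grem1, the other antagonist that moved strongly, read 1511 and 1515 in SKM+EV, 239, 203 and 189 with GATA4, 380 and 333 with PAX1 and 754 and 678 with GATA6. All 3 factors were below SKM+EV, GATA4 the furthest. The log2 differences were -2.68 (SE 0.17, adjusted p = 6.67e-14) and -1.05 (adjusted p = 5.41e-05) with GATA4 and GATA6, and with PAX1 it fell by 2.00 (SE 0.18, adjusted p = 2.14e-09). With CEBPa, HNF4a and GRB2 it rose by 0.61, 0.62 and 0.69 instead. The CEBPa rise in Grem1 was lost without SKM+EV replicate 1 (0.61, adjusted p = 0.0583) or CEBPa+SKM replicate 1 (0.46), and the HNF4a rise without HNF4a+SKM replicate 2 (0.56). Fst fell by 1.30 with GATA6 (adjusted p = 0.00047) and did not pass with the other 7 factors (-0.68 to 0.62). Grem1 did not pass with SOX7 (0.23) or MIXL1 (0.18). Chrd, which binds BMPs, fell by 0.81 with CEBPa and 0.78 with GRB2, calls lost without any one of their 4 arrays (-0.76 to -0.85 and -0.59 to -0.96).

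Latency and processing genes fell with several factors. Bmp1 fell by 0.91 with CEBPa (adjusted p = 0.000191), 0.90 with HNF4a, 0.97 with GRB2 and 0.83 with GATA6. Ltbp4 had a log2 difference of -0.84 with HNF4a (adjusted p = 0.000832) and -0.62 with CEBPa (adjusted p = 0.0136), the latter lost without SKM+EV replicate 1 (-0.54) or CEBPa+SKM replicate 2 (-0.44). Ltbp3 fell by 0.80 with GATA4 (adjusted p = 1.76e-05) and rose by 0.65 with PAX1 (adjusted p = 0.00256), where the call was lost without PAX1+SKM replicate 1 (0.57).

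Among the receptors, Tgfbr3 had the largest differences with GATA4 and GATA6. It read 3352 and 2965 in SKM+EV, 530, 512 and 433 with GATA4, 552 and 470 with GATA6 and 1266 and 1391 with SOX7. These 3 factors were below SKM+EV and GATA4 and GATA6 overlapped each other. The log2 differences were -2.61 (SE 0.31, adjusted p = 5.66e-08), -2.56 (SE 0.34, adjusted p = 7.36e-07) and -1.23 (adjusted p = 0.0153), the last lost without SKM+EV replicate 1 (-1.14) or SOX7+SKM replicate 1 (-1.16). Acvrl1 fell by 1.51 with GATA6 (adjusted p = 2.73e-07) and 1.23 with GATA4 (adjusted p = 1.09e-06). Acvr2b rose by 1.07 with SOX7 (adjusted p = 0.00922), lost without SKM+EV replicate 1 (1.11), SKM+EV replicate 2 (1.02) or SOX7+SKM replicate 1 (0.98). Acvr1 rose by 0.65 with PAX1 (adjusted p = 0.00111), lost without SKM+EV replicate 1 (0.47) or PAX1+SKM replicate 1 (0.50). Bmpr1a rose by 1.26 with PAX1 (adjusted p = 0.00533), lost without SKM+EV replicate 2 (1.04) or PAX1+SKM replicate 1 (1.11).

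Among SMAD and SKI genes, Skil rose by 1.11 with SOX7 (adjusted p = 0.000113), reading 3074 and 3221 against 1650 and 1252. Its rises of 0.72 with GATA6 and 0.51 with GATA4 were lost without SKM+EV replicate 2 (0.52 and 0.32), and the former also without GATA6+SKM replicate 1 (0.64). Smad6 rose by 0.92, 1.03 and 0.81 with CEBPa, HNF4a and GRB2 (adjusted p = 6.93e-05, 1.21e-05 and 0.000272). Smad3 rose by 0.81 with GATA4 (adjusted p = 1.29e-05), and the BMP mediator gene Smad5 fell by 1.20 with GATA6 and 1.09 with GATA4 (adjusted p = 0.00433). The GATA6 call on Smad5 was lost without SKM+EV replicate 1 (-1.16) or GATA6+SKM replicate 2 (-1.06). A second Smad5 probe gave -1.07 with GATA6 and -0.69 with GATA4. With PAX1 Smad6 rose by 0.47, lost without SKM+EV replicate 1 (0.55) or 2 (0.38) or PAX1+SKM replicate 1 (0.34). Smad6 did not pass with the other 4 factors (-0.37 to 0.26), nor Smad7 with any of the 8 (-0.56 to 0.80). Tgfbrap1 had a log2 difference of -0.79 with HNF4a (adjusted p = 1.89e-05) and -0.40 with SOX7, the latter lost without any one of its 4 arrays (-0.35 to -0.46). Smad7 passed with SOX7 once SKM+EV replicate 2 was left out (1.19, adjusted p = 0.0258, against 0.80).

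Of the ID targets, Id2 and Id3 fell with both GATA4 and GATA6, and Id4 took opposite directions. Id2 read 3230 and 2772 in SKM+EV, 809, 763 and 839 with GATA4 and 1068 and 1340 with GATA6. Id4 read 344 and 449 in SKM+EV, 799, 753 and 774 with GATA4 and 84.9 and 130 with GATA6. Both factors were thus below SKM+EV for Id2, while for Id4 GATA4 was above and GATA6 below it, without overlap. Id2 fell by 1.86 (SE 0.21, adjusted p = 1.96e-08) and 1.30 (adjusted p = 5.99e-05), and Id4 rose by 0.92 with GATA4 (adjusted p = 9.3e-05) and fell by 1.63 with GATA6 (adjusted p = 2.81e-07). Id1 read 658, 464 and 495 with GATA4 against 1320 and 2141 in SKM+EV and fell by 1.60 (adjusted p = 4.74e-05). Id3 fell by 1.04 with GATA4 (adjusted p = 0.00013) and by 0.79 with GATA6, the latter lost without SKM+EV replicate 1 (-0.77), GATA6+SKM replicate 1 (-0.75) or GATA6+SKM replicate 2 (-0.83). Tgfbi, the TGF-beta induced matrix gene, fell by 1.98 with GATA6 (adjusted p = 3.57e-07) and by 1.07 with GATA4.

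With HNF4a, Id3 rose by 0.91 (adjusted p = 0.00194), reading 22265 and 21649 against 11898 and 11485, and Id1 rose by 1.07 (adjusted p = 0.00847), lost without SKM+EV replicate 1 (0.73) or HNF4a+SKM replicate 2 (1.01). Id4 fell by 1.25 with SOX7 (adjusted p = 4.09e-05). Id1 fell by 1.07 with PAX1 (adjusted p = 0.0213), lost without SKM+EV replicate 2 (-0.73), PAX1+SKM replicate 1 (-1.19) or PAX1+SKM replicate 2 (-0.96). In the remaining cases the ID genes did not pass, at -0.36 to 0.58 for Id1, -0.55 to 0.51 for Id2, -0.45 to 0.45 for Id3 and -0.07 to 0.34 for Id4.

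In a comparison added after the data had been seen, GATA4+SKM was set directly against GATA6+SKM. Of 47 members 9 were higher and 12 lower with GATA4, where 43.2% of all genes were called, 24.5% higher and 18.6% lower. Without GATA6+SKM replicate 1 the 21 calls became 13. Sostdc1 was higher with GATA4 by a log2 difference of 6.49 on its brighter probe (SE 0.27, adjusted p = 9.94e-16) and 4.04 on its second probe. Since the GATA6 arrays read 36.6 and 74.7, near the pseudocount of 32, no fold is given. Id4 was 5.87-fold higher with GATA4 (2.55, SE 0.17, adjusted p = 2.7e-11), and Tgfbi was higher by 0.91 (adjusted p = 0.0022). Tgfb2 was lower by 1.17 on its brighter probe (adjusted p = 0.00871), against 0.14 on the second, and the call was lost without GATA6+SKM replicate 1 (-0.91). Tgfb3 was higher by 0.79 and Id2 lower by 0.56. The Tgfb3 call was lost without GATA6+SKM replicate 2 (0.68), and the Id2 call without that array (-0.40), GATA4+SKM replicate 1 (-0.56) or GATA4+SKM replicate 2 (-0.52). Smad6, Smad7 and Id3 did not pass (0.12, -0.05 and -0.25). Fst was higher by 1.07 (adjusted p = 0.000861). Inhba was lower by 0.81 (adjusted p = 2.89e-05), Grem1 by 1.63 (adjusted p = 4.75e-09) and Id1 by 1.39 (adjusted p = 0.000344). Bmp4 was lower by 1.45, a call lost without GATA6+SKM replicate 1 (-1.19, adjusted p = 0.0637).

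Counts of members depended on single arrays for several factors. The GATA6 count of 18 was 11 without GATA6+SKM replicate 2, and the SOX7 count of 9 was 5 without SKM+EV replicate 1 or SOX7+SKM replicate 1. For PAX1 the count of 8 was 4, 5 and 2 without SKM+EV replicate 1, SKM+EV replicate 2 and PAX1+SKM replicate 1. CEBPa had 7 in place of 11 without SKM+EV replicate 1 or CEBPa+SKM replicate 1, and GRB2 8, 9 and 10 in place of 17 without SKM+EV replicate 1, GRB2+SKM replicate 1 and GRB2+SKM replicate 2. Calls that held without any one array numbered 16 of 24 for GATA4, 10 of 18 for GATA6, 5 of 9 for SOX7, 1 of 8 for PAX1, 6 of 11 for CEBPa, 11 of 16 for HNF4a and 7 of 17 for GRB2.

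Cell type markers differed between these groups beside the members. Epithelial and keratinocyte markers summed to 98686 to 112733 with GATA6, 79903 to 94681 with SOX7 and 83736 to 88085 with MIXL1, against 84558 to 87837 in SKM+EV. They were lower with CEBPa (26079 to 29399), GATA4 (21373 to 24816), GRB2 (18349 to 18541), HNF4a (16099 to 16706) and PAX1 (10067 to 11288). Fibroblast markers were lowest with GATA6 (69268 to 70034) and GATA4 (98348 to 105042), against 139011 to 149120 in SKM+EV. Their part in the member differences was not tested.

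Other pathway genes, of which 46 were measured, gave 6 rises and 20 falls with GATA4, 3 and 10 with GATA6, 9 and 4 with SOX7 and 5 and 3 with PAX1. They gave 7 and 8 with CEBPa and with HNF4a, 8 and 8 with GRB2 and 1 and 0 with MIXL1. The fibronectin gene Fn1 rose by 2.81, 3.24 and 2.61 with CEBPa, HNF4a and GRB2 (adjusted p = 8.51e-08, 5.19e-09 and 3.14e-07). Of the BMP co-receptor genes, Rgma fell by 2.07 with GATA6 (adjusted p = 8.3e-11) and Hjv by 1.46 with GATA4 (adjusted p = 5.49e-05). The convertase gene Furin, which cuts ligand precursors, fell by 1.47 with GATA4. Tll1, a relative of Bmp1, rose by 1.89 with SOX7 (adjusted p = 1.18e-06), and the TGF-beta targets Cdkn2b and Ccn2 fell by 1.43 and 1.38 with PAX1. Gsc, a homeobox target of activin and Nodal, rose by 0.94 with MIXL1 (adjusted p = 0.00304).

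MIXL1+SKM had 0 members past the threshold by limma over all arrays and 6 by limma on its set alone. On the set alone 264 of 10006 genes rose and 426 fell. At an unadjusted p under 0.05 there were 4 members, a count with no share of all genes beside it, so it shows nothing particular to them. Sostdc1 read 287 and 282, and Inhbb 684 and 692 against 1498 and 1103 in SKM+EV, and neither passed over all arrays. The ID genes had log2 differences of -0.03 to -0.39, and Inhba, Bmp4, Tgfb2, Tgfb3, Grem1, Fst, Smad6 and Smad7 of -0.28 to 0.49.

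As a mean over the 8 factors, the substitutes were also set against OCT4+SKM. Of 47 members 10 were higher and 5 lower, with 32.7% of all genes called, 19.4% higher and 13.4% lower, and medians of 0.03 for members and 0.02 for all genes. Without OCT4+SKM replicate 2 the 15 calls became 8. Since CEBPa, HNF4a and GRB2 gave like arrays, the mean of the other 5 substitutes was also taken: 8 members were higher and 4 lower, where 17.6% of all genes were called, 10.4% higher and 7.21% lower. Inhba was 2.67-fold higher (log2 difference 1.41, SE 0.11, adjusted p = 4.26e-11), and all substitute arrays, from 149 to 908, lay above the OCT4+SKM arrays at 122 and 133. Inhbb was higher by 1.01 (adjusted p = 0.000598), from 347 and 366 with OCT4 to between 424 and 1052. Bmp2 (1.24), Tgfb3 (1.02), Gdf15 (0.97) and Sostdc1 (0.90) were higher on average with overlapping arrays, since the factors differed as described. With the 5 substitutes Inhba was higher by 0.79 (adjusted p = 9.58e-06), Bmp2 by 0.56 (adjusted p = 0.035) and Tgfb3 by 0.57 (adjusted p = 0.0245), and Sostdc1 did not pass (0.49, adjusted p = 0.153). Smad6 was higher by 0.67 (adjusted p = 8.06e-05), or 0.36 with the 5 substitutes (adjusted p = 0.0431). Bmp4, Tgfb2, Grem1, Fst, Smad7, Id1, Id3 and Id4 did not pass, at -0.72, -0.39, -0.06, 0.09, -0.35, -0.47, 0.14 and 0.11, and the second Tgfb2 probe gave 0.65. Id2 was lower by 0.76 (adjusted p = 0.000949), lost without OCT4+SKM replicate 2 (-0.56, adjusted p = 0.106). Of 46 other pathway genes 7 were higher and 6 lower, with Fn1 at 2.30 and Eomes at -1.46. Eomes was dim, as given for OCT4+SKM above, so its size depends on the pseudocount.

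OKM+EV, with OCT4 but no SOX2, was compared with MEF2 EV. Of 61 members 2 rose and 0 fell, with 5.55% of all genes called, 3.08% higher and 2.47% lower, and medians of 0.11 for members and -0.01 for all genes. Grem1 read 370 and 257 in MEF2 EV and 4508, 4481 and 2811 in OKM+EV, all clear above the control (log2 difference 3.51, SE 0.35, adjusted p = 0.0035), or 11.4-fold. The Grem1 call was lost without MEF2 EV replicate 1 (3.74, adjusted p = 0.0821) or replicate 2 (3.27, adjusted p = 0.101), and the count of calls was then 0. Without OKM+EV replicate 1 or 2 it was 1. Acvr2a read 59.0 and 86.6 against 267, 258 and 312 (log2 difference 1.58, adjusted p = 0.0287), and its call was lost without MEF2 EV replicate 1 (1.39) or 2 (1.77) or OKM+EV replicate 1 (1.60) or 2 (1.63).

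OKM+EV replicate 3 lay apart from the others for many members. Without it, 17 members rose and 13 fell of 61, where 46.6% of all genes were called. Inhbb read 342 and 252 in MEF2 EV and 2188, 2368 and 777 in OKM+EV, Id1 1891 and 2052 against 6841, 6896 and 2365, and Sostdc1 107 and 150 against 457, 508 and 160. In each case replicates 1 and 2 lay high together. Replicate 3 lay near the control for Id1 and Sostdc1, and for Inhbb it lay above the control but below replicates 1 and 2. Id3 had the form of Id1, with 11692 and 10107 against 31544, 24252 and 11984. Without replicate 3 the log2 differences were 2.83 for Inhbb, 1.79 for Id1, 1.69 for Sostdc1 and 1.34 for Id3. These genes were chosen because replicate 3 stood apart for them, so p-values without that array would not test them. None of them passed with all arrays, where Id1 (1.28) and Id3 (0.94) had limma adjusted p-values of 0.188 and 0.235. Tgfb1 read 577 and 605 in MEF2 EV and 202, 240 and 148 in OKM+EV, below it on every array. Its fall of 1.47 missed the threshold (adjusted p = 0.0632) and passed without replicate 3 (-1.30, adjusted p = 0.000275). With all arrays Inhba, Bmp4, Tgfb2, Tgfb3, Fst, Id2, Smad6 and Smad7 did not pass, with log2 differences of -0.80 to 0.80. For Smad5 (474 and 364 against 267, 282 and 1286) and Tgfbr3 (608 and 734 against 675, 824 and 2965) replicate 3 was instead the highest array.

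**Figure D5:**
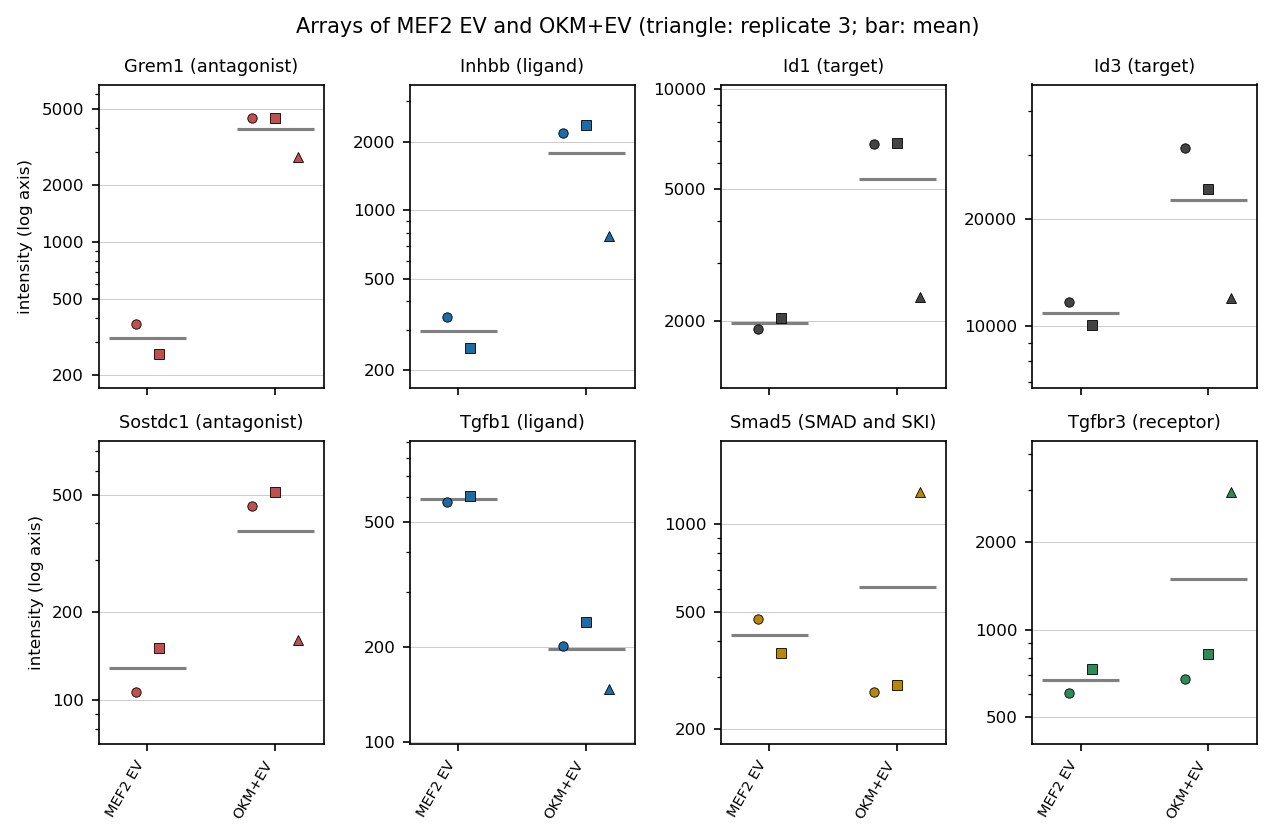
Intensity (arbitrary units, log axis) of Grem1, Inhbb, Id1, Id3, Sostdc1, Tgfb1, Smad5 and Tgfbr3 on each array of MEF2 EV and OKM+EV, with a triangle for replicate 3. Grem1 lies between 2811 and 4508 in OKM+EV against 257 to 370 in MEF2 EV, while replicate 3 lies apart from replicates 1 and 2 for Id1, Id3, Inhbb, Sostdc1, Smad5 and Tgfbr3.

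Epithelial markers, 7 of 10 measured in this set, summed to 1959 to 2162 in MEF2 EV and 40682 to 76031 in OKM+EV, and myeloid markers, 5 of 6 measured, to 33661 to 41487 and 973 to 3655. Of the defining myeloid markers, Csf1r averaged 11114 in MEF2 EV and 170 in OKM+EV. Adipocyte markers, 4 of 5 measured, summed to 54603 to 67180 and 11382 to 36264, while fibroblast markers ranged from 97878 to 102895 and from 98371 to 134891. The part of these cell types in the member differences, Tgfb1 included, was not tested. Of 58 other pathway genes 3 rose and 1 fell. Nrros, a docking receptor for latent TGF-beta on myeloid cells, fell by 3.33 (limma adjusted p = 0.0048). The Nodal co-receptor gene Tdgf1 rose by 2.47 (adjusted p = 0.0104), while Tab2 and Zeb1 rose by 1.53 and 1.40. All of these calls were lost without MEF2 EV replicate 1. Pluripotency markers, 5 of 10 measured and Tdgf1 among them, summed to 1414 to 1559 in MEF2 EV and 1333 to 1561 in OKM+EV.

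SOX1, SOX3 and GMNN were compared with SOX2, each with OKM, over the same 2 OKM+SOX2 arrays. By limma 0 of 54 members passed with SOX1 (0.215% of all genes called) and 0 with SOX3 (0.241%), and with GMNN 1 rose and 1 fell (2.03%, 1.28% higher and 0.751% lower). At an unadjusted p under 0.05 there were 10 members with SOX1 and 7 with SOX3. All genes were not counted at that threshold, so these counts show nothing particular to the members. A fit over all 49 arrays called 5 and 4 members. There 410 of 11188 genes rose and 230 fell with SOX1, and 383 and 323 with SOX3. Member medians were -0.21, -0.12 and -0.04, beside -0.05 for all genes in each. Chrdl1, a BMP antagonist, read 205 and 278 with SOX2, 530 and 522 with SOX1, 246 and 227 with SOX3 and 589 and 687 with GMNN. GMNN and SOX1 arrays lay above those with SOX2, and GMNN passed (log2 difference 1.30, SE 0.21, adjusted p = 0.0193). Sostdc1 read 1679 and 1548 with SOX2, 1104 and 938 with SOX1, 777 and 738 with SOX3 and 463 and 657 with GMNN, so SOX2 was the highest group. It fell by 1.49 with GMNN (SE 0.22, adjusted p = 0.0127). Both GMNN calls were lost without GMNN replicate 1 (1.41 for Chrdl1 and -1.25 for Sostdc1) or replicate 2 (1.20 and -1.73), which left 0 calls.

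The OKM+SOX2 arrays lay far apart from each other for some members. Tgfbr2 read 203 and 8988 on them, against 5472 to 11735 on the other 6 arrays, and Tgfb2 376 and 1589 against 1069 to 2646. Without OKM+SOX2 replicate 2, the comparisons rest on replicate 1 alone, assumed to vary like the other groups. Replicate 1 is the array that read 203 for Tgfbr2 and 376 for Tgfb2, below all other arrays of the set. Against it Tgfbr2 differed by 4.73, 4.91 and 5.34 with SOX1, SOX3 and GMNN, and Tgfb2 by 1.84, 2.47 and 1.59. The median over all genes was then -0.13, -0.14 and -0.14, against -0.0017, -0.0051 and -0.003 without replicate 1. With both arrays the second Tgfb2 probe had the opposite sign to the brighter in all 3, at -0.08, -0.56 and -0.32 against 0.85, 1.47 and 0.59. Grem1 with SOX3 differed by 1.35 from replicate 1 alone and by 1.07 with both arrays. It read 1583 and 1650 with SOX3 against 616 and 919 with SOX2. Id1, Id2 and Id3 did not pass with both arrays, with differences from -0.65 to 0.28, nor did Tgfb1, Tgfb2, Tgfb3, Inhba, Bmp4, Grem1, Fst and Smad7 (-0.79 to 1.47). Epithelial markers, 8 of 10 measured, summed to 105540 to 112128 with GMNN, 38776 to 44180 with SOX2, 52714 to 56378 with SOX1 and 53917 to 59266 with SOX3. Myeloid markers, 4 of 6 measured, summed to 604 to 1080 with SOX2, 2274 to 2279 with SOX1, 3488 to 3628 with SOX3 and 3868 to 3991 with GMNN. Their part in the member differences was not tested. Of 56 other pathway genes 0 passed with SOX1 or SOX3 by limma, and Tab2 fell by 1.10 with GMNN. At an unadjusted p under 0.05 there were 7 each with SOX1 and SOX3, again with no count of all genes to set beside them.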

How the data were processed

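RNA of each sample was labelled with Cy5, per the labels' protocols, and read on a one-colour array. The authors deposited 1 table of linear intensity values, with the normalization, scanner and software not stated in those labels. The arrays fell into 5 sets with identical missing probes and, within a set, nearly identical sorted values, of 15859, 15506, 14419, 14562 and 14394 probes, so differences were tested within a set only. In the SKM set array medians ran from 400.826 to 416.087, highest in CEBPa, HNF4a and GRB2. Each sample's group came from its treatment label or, for the uninfected and empty-vector fibroblasts and the cell lines, its title. From the deposited intensity, log2(intensity + 32) was computed here. Of 19426 probes, 15539 had 1 gene symbol and 3887 had no name used here, and 13971 symbols were current, 1538 were updated from synonyms and 30 were kept. The brightest probe stood for a gene.

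Group means were fitted with limma 3.58.1 (R 4.3.3, lmFit and eBayes with an intensity trend), two-sided, with Benjamini-Hochberg adjustment over all genes of a comparison at 0.05. The comparisons of the SKM set and of the cell lines came from 1 fit over all 49 arrays. Their SE thus includes the spread of groups outside a comparison, so a missed or lost call need not reflect the arrays compared. The planned fit over all arrays made false calls on simulated data in the MEF2 EV and OKM sets, so these were fitted alone, with the fit over all arrays as an alternative. The fits were tested on simulated data. Tables and plots were made with pandas 2.3.3 and matplotlib 3.10.9.

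The members, gene lists and tests were chosen with earlier results of these data known. Full statistics are given for members that passed, whose arrays did not overlap between the sides and whose brighter side lay above the median gene: up to 8 in each direction, or 4 for single factors and lines. Id1 to Id4, Inhba, Bmp4, Tgfb1 to Tgfb3, Smad6, Smad7, Grem1 and Fst are given wherever measured, by a range where they did not pass, and other pathway genes by their 4 largest calls. Further members are named for their role, with their values seen. Of the 69 members, 65, 61, 54, 47 and 60 had values in the 5 sets, and 47 matched a RefSeq promoter. Alternatives were pseudocounts of 8 and 128, dim genes left out, each set alone, the replicate number as a block, quantile normalization again, the mean of all probes, no trend, and each array left out. After the data were seen, each line alone, the 5 substitutes other than CEBPa, HNF4a and GRB2, and 3 comparisons were added. Replicate numbers showed no consistent pairing of arrays, and other pairings were not tested.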

Additional observations from a re-analysis of the deposited data

Results flagged for a closer look

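Several members moved in opposite directions in a pair of iPSC lines against ESC R1, or with a pair of factors against SKM+EV, and the difference between the pair passed limma's test itself. The pairs were compared after the data had been seen, and the opposite calls share the R1 or SKM+EV arrays. G6Gm exceeded G3 on the log2 scale by 2.25 for Tgfb3 (SE 0.23, adjusted p = 1.61e-08), 1.58 for Inhba (adjusted p = 5.18e-09), 2.35 for Grem1 and 2.27 for Ltbp2. It also exceeded G3 by 1.33 for Ltbp3 and by 1.26 for Acvr1, a type I receptor gene.

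Dlx3RNAi exceeded G3 by 2.59 for Tgfb3, 2.09 for Grem1, 2.03 for Ltbp2 and 1.52 for Ltbp3. For receptors it exceeded G3 by 1.44 for Acvr1 and 2.25 for Acvrl1, and for Tgfb1i1 by 1.94 (adjusted p = 3.51e-08). Acvr1 and Tgfb1i1 fell in G3 against R1 by 0.60 and 0.83. Both falls were lost without G3 replicate 1 (-0.56 and -0.68), the Acvr1 fall without R1 replicate 1 (-0.45) and the Tgfb1i1 fall without R1 replicate 2 (-0.74). Fibroblast marker sums were 12851 to 13101 in G3, 35048 to 36407 in G6Gm and 44362 to 50100 in Dlx3RNAi, and their part in these differences was not tested.

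GATA4+SKM exceeded GATA6+SKM by 6.49 for Sostdc1 on its brighter probe (SE 0.27), 4.04 on its second probe, and by 2.55 for Id4 (SE 0.17). The Sostdc1 arrays with GATA6 read 36.6 and 74.7, near the pseudocount of 32. Epithelial markers summed to 21373 to 24816 with GATA4 and 98686 to 112733 with GATA6, and their part was not tested.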

How the results depend on the processing

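With 2 or 3 arrays a group, many counts of called members depended on the setting, and the cause was not tested unless stated. With dim genes left out, which tests fewer members, the count was 23 in place of 37 for the lines against MEF, 6 of 10 for SKM+EV, 5 of 8 for PAX1, 6 of 11 for CEBPa, 8 of 16 for HNF4a, 6 of 17 for GRB2 and 1 of 2 for GMNN. With each set fitted alone it was 27 in place of 17 for G6Gm and 23 in place of 14 for G3 against R1, 15 in place of 9 for OCT4 against SKM+EV, 18 in place of 9 for SOX7, 20 in place of 8 for PAX1, 22 in place of 11 for CEBPa, 26 in place of 17 for GRB2 and 6 in place of 0 for MIXL1. Over all 49 arrays it was 25 in place of 2 for OKM+EV, 5 in place of 0 for SOX1 and 4 in place of 0 for SOX3. There 2364 of 11947 genes rose and 2515 fell for OKM+EV. With each set alone 2178 of 11991 genes rose and 2060 fell for G6Gm, and 1300 and 1181 for G3. Of 10006 genes 1945 rose and 1333 fell for PAX1, and 3151 and 2432 for GRB2. With dim genes left out, 363 of 5003 genes rose and 390 fell for PAX1, and 934 and 830 for GRB2.

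With the replicate number as a replicate block in the set alone, the counts were 27 for G6Gm, 23 for G3, 16 for OCT4 against SKM+EV, 18 for SOX7, 20 for PAX1, 21 for CEBPa, 7 for MIXL1 and 31 for OKM+EV. With this block 2971 of 11947 genes rose and 3189 fell for OKM+EV, and 2114 and 1960 of 11991 for G6Gm. Replicate numbers share no stated source. Deviations of arrays with the same number correlated at medians of 0.011 to 0.065 within sets, from -0.496 to 0.515, so the numbers do not pair the arrays.

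Leaving out each array in turn gave 33 to 37 calls for the lines against MEF, 8 to 10 for G6Gm, 7 to 9 for G3 and 11 to 12 for Dlx3RNAi against R1. It gave 9 to 12 for SKM+EV, 10 to 16 for OCT4 against MEF1 EV and 4 to 5 against SKM+EV. With single factors it gave 11 to 17 for GATA6, 5 to 9 for SOX7, 2 to 6 for PAX1, 18 to 24 for GATA4, 7 to 11 for CEBPa, 11 to 17 for HNF4a, 8 to 15 for GRB2 and 0 to 0 for MIXL1. The 8 substitutes against OCT4 gave up to 16. For OKM+EV the highest count was 30, without OKM+EV replicate 3, where 46.6% of all genes were called, against 5.55% with all arrays. With SOX1, SOX3 and GMNN, fitted in their set alone, each omission leaves a single array in a group, so no counts are given. The other ranges have no share of all genes beside them, so they show nothing particular to the members. The added comparisons gave 14 to 18 for G6Gm and 17 to 20 for Dlx3RNAi against G3, and 13 to 19 for GATA4 against GATA6.

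Of the values of named members under other settings than leaving out an array, 2756 kept direction and side of the threshold, 119 came to pass, 18 no longer passed and 4 changed sign. Tgfb3 was 0.28 for Dlx3RNAi alone against MEF, Grem1 was 0.33 for G6Gm alone and 0.061 for Dlx3RNAi alone, and Tgfb2 with GATA4 was 0.079 as the mean of its probes. With an array left out, 1648 kept both, 16 came to pass and 161 no longer passed. Signal over background was not analysed, so low intensities such as those of Id4 in the lines limit the size of their differences.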

Other observations

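ESC line B6, from the C57BL\6 strain, was alone in its normalization set, so it was compared with no other group. The type II activin receptor gene Acvr2b read 3500, 3622 and 3350 on its 3 arrays, Bmp2 1837, 1914 and 1790, and Inhbe 1041, 1163 and 1065. The BMP target Id3 read 16716, 17502 and 15709. The 3 arrays lay close together for each of these genes. Low in B6 were Tgfb3 at 76.7, 78.2 and 90.7, the antagonist Grem1 at 120, 102 and 119, and Sostdc1 at 31.4, 29.1 and 36.8. Fibroblast markers, of which 7 of 12 were measured, summed to 1150.17 to 1224.75 in this line.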
